A study of Mus musculus with 11 samples.

Results

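The transcripts described here encode 8 proteins of messenger RNA decay, among them regulators of inflammatory messengers: Zfp36, Zfp36l1, Zfp36l2, Zc3h12a, Zc3h12c, Rc3h1, Btg1 and Btg2. They were found in the deposited table as probe sets annotated with exactly 1 of these symbols, and the probe set of highest mean stood for a gene that had several. All 8 were present among 18755 genes in all. All samples were primary macrophages: marrow cells of C57Bl/6 wild-type mice were kept for 1 week in macrophage colony-stimulating factor at 5 ng/ml and were used 24 hours after replating. Cells of the first group, on 4 arrays, were given lipopolysaccharide (LPS, from the outer membrane of bacteria) at 100 ng/ml plus prostaglandin E (PGE, a lipid signal made at sites of inflammation) at 10 µM for 1 hour. In the second they received the same dose of LPS alone for 1 hour, on 3 arrays. The third group was left untreated, on 4 arrays. The type of prostaglandin E is not stated in the labels, no group had PGE alone, and a single time was measured. Nothing in the labels says whether replicates came from separate mice or cultures, so the p-values measure only the spread between these samples, which may be technical.

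Many cytokine messengers carry adenine- and uracil-rich elements or stem-loops in their 3′ untranslated region, and these mark them for fast removal. Tristetraprolin, the product of Zfp36, and its relatives encoded by Zfp36l1 and Zfp36l2 bind the adenine- and uracil-rich elements through zinc fingers and recruit the CCR4-NOT deadenylase complex. Regnase-1, the product of Zc3h12a, is an endonuclease that cuts stem-loop messengers such as that of Il6, and Zc3h12c encodes a related protein, Regnase-3. Roquin-1, the product of Rc3h1, binds stem-loops and recruits decay enzymes. Btg1 and Btg2 bind a deadenylase subunit of CCR4-NOT and speed the removal of poly(A) tails. In macrophages tristetraprolin and Regnase-1 help to limit how long the burst of cytokine messengers after LPS lasts.

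Of the 8 genes, 7 rose under LPS plus PGE against untreated cells, where 13.8% of all genes rose, and 7 rose under LPS alone, where 6.55% did. Zc3h12c, Zc3h12a, Zfp36 and Btg2 made the largest rises, of 4-fold or more under LPS. Zfp36l1 rose just over 2-fold, Btg1 and Rc3h1 rose by less, and Zfp36l2 did not pass the test in any comparison. Set against LPS alone, LPS plus PGE raised Zc3h12a and Btg2, and the other 6 did not pass the test. These 2 of 8 called genes stand beside 24.7% of all genes called in that comparison (11.9% rose), so the count itself is near the background.

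RefSeq promoter windows (GRCm38.p6; 300 bases around an annotated start) were matched for 7 of the 8 genes, with 8 windows because Zc3h12c had 2. Zfp36l2 had no entry. The stretches below are those with an upstream match to a full CRE, a CArG box, the NF-kB consensus or an AP-1 site, which are described after them. Stretches that hold only the CRE core TGACG, upstream of Btg1 and of the second Zc3h12c start, are not printed. Bases in capitals mark the matched motif, and every sequence reads 5′ to 3′ on the strand of the gene.
Btg2, chr1:134079299-134079336, minus strand, CRE: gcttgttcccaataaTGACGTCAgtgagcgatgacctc
Zfp36, chr7:28379262-28379301, minus strand, CArG box: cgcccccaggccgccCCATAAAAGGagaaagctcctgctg
Zc3h12c, chr9:52168618-52168656, minus strand, NF-kB consensus (the capitals are its reverse complement): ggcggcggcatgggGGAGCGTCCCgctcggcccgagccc
Zfp36l1, chr12:80113121-80113157, minus strand, AP-1 site: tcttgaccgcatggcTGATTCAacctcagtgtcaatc
Rc3h1, chr1:160906263-160906299, plus strand, AP-1 site: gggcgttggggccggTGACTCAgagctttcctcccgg

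Motifs were searched on both strands. The cyclic AMP response element (CRE, TGACGTCA) occurred in the Btg2 window, with its first base 166 bases upstream of the start, and in 1.79% of 32851 mouse promoter windows of the same length. Its core TGACG, which every full element also holds, occurred in 4 of the 8 windows, those of Btg2, Btg1, Zc3h12a and the second start of Zc3h12c, and in 20.8% of all windows. The CArG box, bound by serum response factor, began 58 bases upstream of the Zfp36 start and occurred in 1.63% of all windows. The NF-kB consensus was matched 236 bases upstream of one Zc3h12c start and in 8.46% of all windows. An AP-1 site, searched loosely as TGANTCA with any middle base, was matched upstream of Zfp36l1 and Rc3h1 and in 7.81% of all windows. The middle base was T for Zfp36l1 and C for Rc3h1. A match describes letters only, and none was tested for binding here.

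Values are on a log2 scale, so that a difference of 1 is a 2-fold change, and levels are compared between groups for 1 gene. They are set beside those of other genes only as a rough guide, for cell type markers and for bright or dim genes. Changes are log2 fold changes ± SE. They come from 1 limma model of the 3 groups, and each p-value was adjusted over all genes by the Benjamini-Hochberg method. The comparisons against untreated cells share those 4 arrays, and the comparison of LPS plus PGE with LPS shares arrays with both. A transcript level here cannot tell more cells carrying a transcript from more transcript per cell.

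Array medians over the 18755 genes lay between 5.79 and 6.01 (Pearson correlation across genes within groups, 0.996 to 0.998). The labelled cell type was borne out by its markers: the macrophage genes Adgre1, Csf1r and Cd68 stood at means of 12.45, 12.52 and 12.75, above 99.5% to 99.8% of genes. All 9 measured macrophage markers lay above the median gene, the lowest being Aif1 at 8.19, above 69% of genes. Of the markers of other cell types, the lists for T and NK cells, mast cells, erythroid cells and stroma had no gene above the median gene, those for neutrophils and B cells had 1 each, and that for dendritic cells had 2, one of them Itgax, which macrophages also express. The mean of the neutrophil list ran from 4.34 to 4.58 in LPS plus PGE arrays, from 4.30 to 4.62 in LPS arrays and from 4.41 to 4.43 in untreated arrays, so these ranges overlapped. Not all lists did: with LPS plus PGE the mast cell list ran from 3.34 to 3.41, against 3.18 to 3.30 in untreated arrays. The erythroid list ran from 4.13 to 4.41 with LPS plus PGE and from 4.00 to 4.06 with LPS. Under LPS plus PGE against untreated, 2 dendritic cell markers and 1 stroma marker rose, while 1 T and NK cell marker rose and 1 fell. For LPS against untreated, 1 neutrophil and 1 dendritic cell marker rose and 1 stroma marker fell. Between LPS plus PGE and LPS, 1 B cell, 1 erythroid and 2 stroma markers rose. In that comparison the dendritic cell list and the T and NK cell list each had 1 rise and 1 fall. The mean of the 9 macrophage markers ran from 11.45 to 11.50 in LPS plus PGE arrays, from 11.44 to 11.46 in LPS arrays and from 11.29 to 11.37 in untreated arrays. Of these 9, only Cd14, the LPS co-receptor gene, rose (2.22 ± 0.06 under LPS plus PGE and 1.64 ± 0.06 under LPS), and the median change of the list was -0.05 and -0.06 in the same comparisons. Under LPS plus PGE against untreated 1 of the 9 fell, and 3 were lower at an unadjusted p under 0.05 (lowest change -0.30). No array stood apart from its group.

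Over all genes, LPS plus PGE against untreated called 31.7% of 18755 (13.8% rose), LPS against untreated called 13.2% (6.55% rose), and LPS plus PGE against LPS called 24.7% (11.9% rose). The split of calls followed the scaling. Under LPS plus PGE against untreated it was 2587 rises and 3359 falls, but 4499 and 2119 with equal array medians, 2596 and 2206 after quantile normalization and 2129 and 1788 after cyclic loess. For LPS against untreated it was 1229 and 1254, but 2747 and 613 with equal medians, which moved the median of all genes by 0.114. With LPS plus PGE against LPS it was 2225 and 2416, but 1804 and 3004 with equal medians. Relative to the moved median, Rc3h1 was still higher by 0.29 under LPS and the 7 genes that rose were called rises under each of the 3 scalings.

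**Figure D1:**
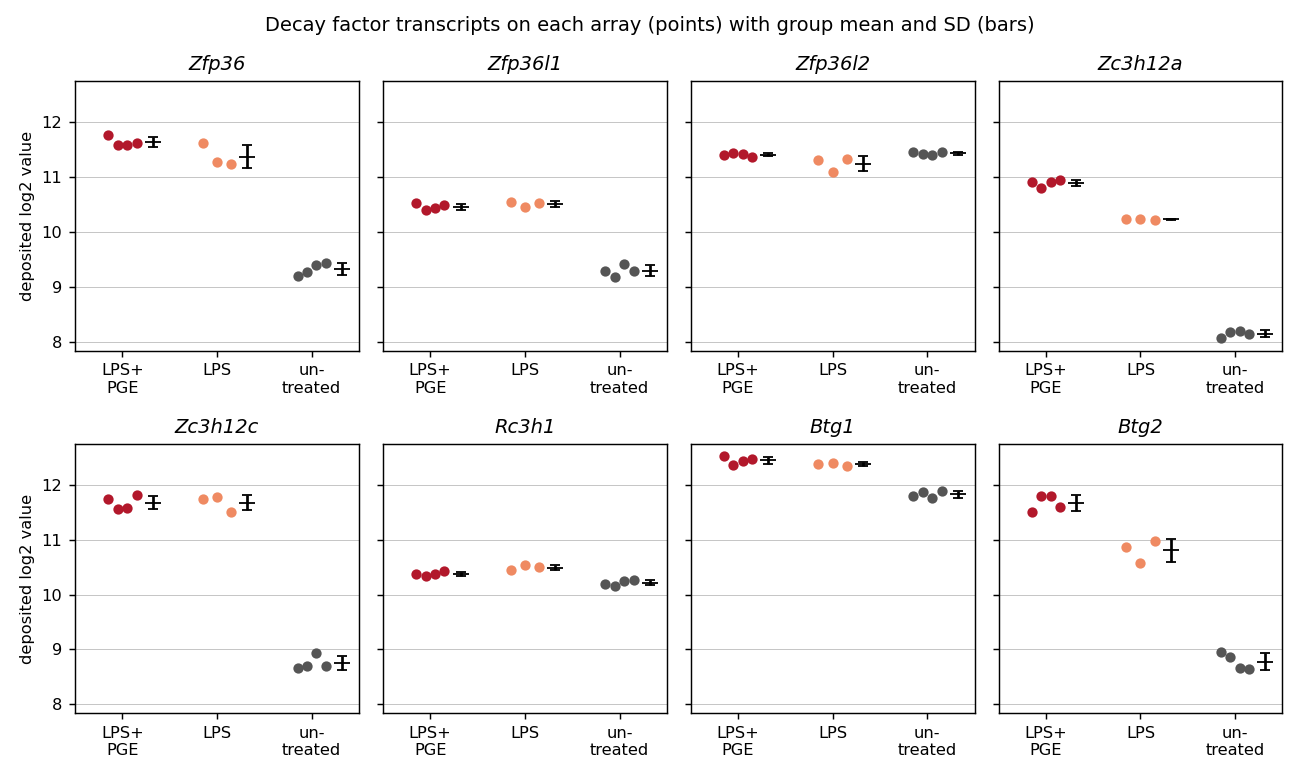
Deposited log2 value (vertical axis) of each of the 8 genes on every array, with LPS plus PGE, LPS and untreated arrays from left to right; points are arrays and bars the group mean with its SD. Zfp36, Zfp36l1, Zc3h12a, Zc3h12c and Btg2 lie at least 0.97 higher on every treated array than on any untreated one, Zc3h12a and Btg2 show 3 separate levels, and Zfp36l2 spans 0.38 over all arrays.

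Among the tristetraprolin family, Zfp36 and Zfp36l1 rose in treated cells and Zfp36l2 did not pass the test. Zfp36 stood at 11.77, 11.58, 11.58 and 11.62 on the LPS plus PGE arrays, at 11.61, 11.27 and 11.23 on the LPS arrays and at 9.19, 9.26, 9.39 and 9.43 on the untreated arrays. All treated arrays lay above all untreated ones, while 1 LPS array reached into the range of the LPS plus PGE arrays. The change was 2.32 ± 0.09 (4.99-fold, adjusted p = 2.15e-09) for LPS plus PGE against untreated and 2.05 ± 0.10 (4.15-fold, adjusted p = 2.21e-08) for LPS against untreated. By log2 fold change under LPS it ranked 122 from the top of all genes. Between LPS plus PGE and LPS the difference was 0.27 ± 0.10, with a 95% confidence interval of 0.05 to 0.48 and an adjusted p of 0.0677. That call depended on 1 array: without LPS replicate 1, the highest LPS array, the difference was 0.39 with an adjusted p of 0.0128. A trended and robust variance also gave a call (adjusted p = 0.0287).

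Zfp36l1 had values of 10.52, 10.39, 10.44 and 10.48 with LPS plus PGE, 10.55, 10.45 and 10.53 with LPS and 9.29, 9.18, 9.42 and 9.29 without treatment. Both treated groups overlapped each other and were clear of the untreated arrays. Its change was 1.17 ± 0.06 (2.25-fold, adjusted p = 3.69e-08) under LPS plus PGE and 1.22 ± 0.07 (2.33-fold, adjusted p = 8.23e-08) under LPS. The difference between the treatments was -0.05 ± 0.07 (95% confidence interval -0.20 to 0.09, adjusted p = 0.598).

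Zfp36l2 was high in every group, at 11.40, 11.43, 11.42 and 11.37 with LPS plus PGE, 11.30, 11.08 and 11.33 with LPS and 11.45, 11.41, 11.39 and 11.46 in untreated cells. The LPS arrays lay below those of both other groups, with a gap of only 0.06 to the lowest untreated array. For LPS against untreated the difference was -0.19 ± 0.07 (95% confidence interval -0.34 to -0.05, adjusted p = 0.0807). It passed with a trended and robust variance (adjusted p = 0.0119) or with dim genes left out (0.0428), and it was -0.08 with equal array medians. LPS plus PGE differed from untreated by -0.02 ± 0.06 (95% confidence interval -0.16 to 0.11, adjusted p = 0.795), and for LPS plus PGE against LPS it was 0.17 ± 0.07 (0.03 to 0.32, adjusted p = 0.0809; 0.0198 with a trended and robust variance). LPS replicate 2, the lowest array, carried much of both differences: without it LPS against untreated was -0.12 (adjusted p = 0.272) and LPS plus PGE against LPS was 0.09 (adjusted p = 0.277).

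The family therefore changed unequally on the same arrays. Relative to its untreated mean, the within-array difference of Zfp36 over Zfp36l2 was higher by 2.26 to 2.47 on the LPS plus PGE arrays and by 2.01 to 2.42 on the LPS arrays. For Zfp36 over Zfp36l1 it was higher by 1.11 to 1.22 with LPS plus PGE and by 0.67 to 1.04 with LPS. Untreated arrays ran from -0.15 to 0.11 and from -0.12 to 0.11 in these measures. These are descriptions of unequal change and were given no test of their own.

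**Figure D2:**
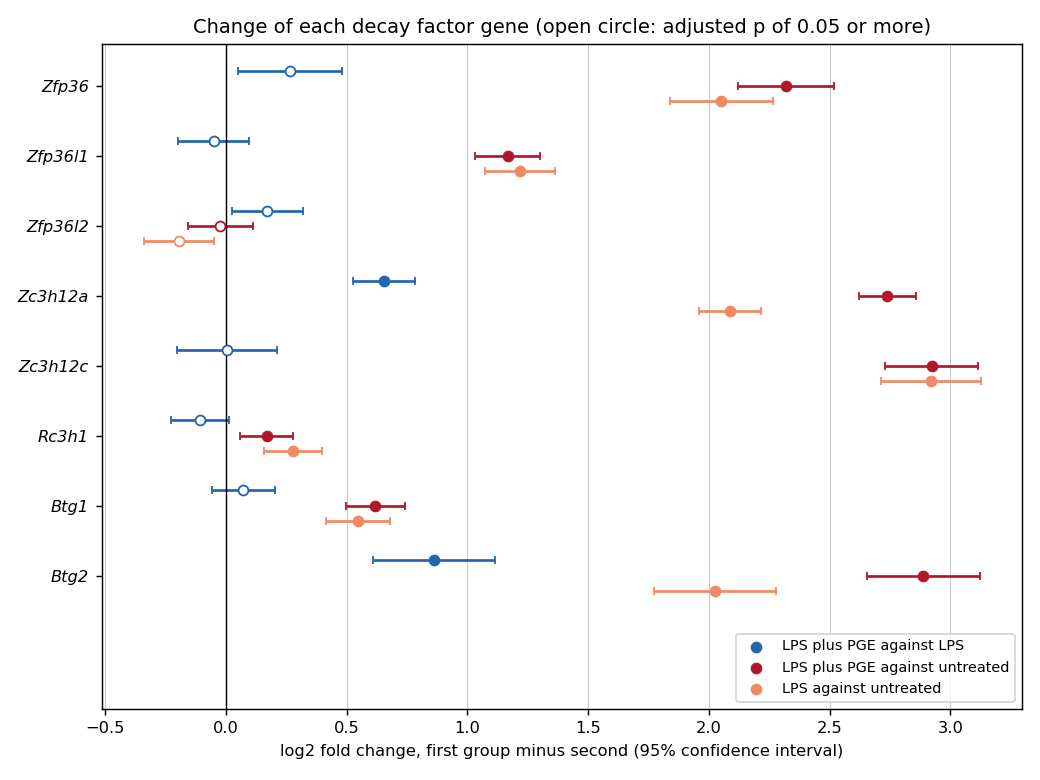
Log2 fold change of each gene (horizontal axis, first group of the comparison minus the second) with its 95% confidence interval, for LPS plus PGE against LPS, LPS plus PGE against untreated and LPS against untreated from top to bottom within a gene. Filled circles passed an adjusted p of 0.05 and open circles did not. Only Zc3h12a and Btg2 have a filled circle for LPS plus PGE against LPS, at 0.65 and 0.86.

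Both Regnase genes rose against untreated cells, and Zc3h12a also passed for LPS plus PGE against LPS. Zc3h12a stood at 10.91, 10.80, 10.90 and 10.94 with LPS plus PGE, at 10.24, 10.23 and 10.22 with LPS and at 8.06, 8.18, 8.20 and 8.14 in untreated cells. The groups formed 3 levels that did not overlap, with a gap of 0.56 between the lowest LPS plus PGE array and the highest LPS array. The change was 2.74 ± 0.05 (6.68-fold, adjusted p = 2.95e-12) for LPS plus PGE against untreated and 2.09 ± 0.06 (4.25-fold, adjusted p = 1.42e-10) for LPS against untreated. Against LPS alone, LPS plus PGE raised it by 0.65 ± 0.06 (1.57-fold, 95% confidence interval 0.52 to 0.78, adjusted p = 2.61e-05), higher on 4 of 4 arrays. Over the 22 alternatives that difference ran from 0.62 to 0.74.

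Zc3h12c stood at 11.74, 11.56, 11.58 and 11.81 with LPS plus PGE, at 11.73, 11.77 and 11.51 with LPS and at 8.66, 8.70, 8.94 and 8.70 in untreated cells. The treated groups overlapped throughout and lay at least 2.57 above every untreated array. It rose by 2.92 ± 0.09 (7.58-fold, adjusted p = 1.46e-10) under LPS plus PGE, a size within the error of that of Btg2, and by 2.92 ± 0.09 (7.56-fold, adjusted p = 5.07e-10) under LPS, the largest of the 8 genes there and rank 62 from the top of all genes. The difference between the treatments was 0.00 ± 0.09 (95% confidence interval -0.20 to 0.21, adjusted p = 0.977). A second probe set of Zc3h12c gave 11.41, 11.26, 11.33 and 11.56 with LPS plus PGE, 11.62, 11.46 and 11.20 with LPS and 8.14, 8.17, 8.31 and 8.41 in untreated cells. In a fit over all probe sets it rose by 3.13 ± 0.10 under LPS plus PGE and by 3.17 ± 0.11 under LPS, so on both probe sets the treated arrays lay above the untreated ones.

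On the same arrays the difference of Zc3h12a over Zc3h12c, relative to its untreated mean, was -0.27 to -0.08 with LPS plus PGE and -0.93 to -0.68 with LPS, against -0.14 to 0.09 in untreated cells. The LPS and LPS plus PGE arrays did not overlap in this measure, which was given no test.

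Of the other Regnase genes, both in a list of other RNA-binding regulators, Zc3h12d had 8.51, 8.88, 8.74 and 8.57 with LPS plus PGE, 8.98, 9.03 and 9.21 with LPS and 9.19, 9.17, 9.26 and 9.19 in untreated cells. It fell under LPS plus PGE against untreated (-0.53 ± 0.08, adjusted p = 0.000504). Its difference between LPS plus PGE and LPS was -0.40 ± 0.09 (adjusted p = 0.00972; 0.0511 after cyclic loess normalization), and for LPS against untreated it did not pass (-0.13 ± 0.09, adjusted p = 0.39). Zc3h12b, at a mean of 5.09 in untreated cells and so below the median gene (5.92), fell under LPS plus PGE against LPS (-0.46 ± 0.10, adjusted p = 0.00908). It was also called lower for LPS plus PGE against untreated (-0.27, adjusted p = 0.0462). That call was lost after quantile normalization (0.116) and with equal medians (0.135). For LPS against untreated Zc3h12b did not pass (0.19, adjusted p = 0.283).

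Rc3h1 made the smallest called rise. It stood at 10.38, 10.34, 10.37 and 10.43 with LPS plus PGE, at 10.44, 10.53 and 10.50 with LPS and at 10.19, 10.16, 10.24 and 10.26 in untreated cells. The LPS arrays were highest, the untreated lowest, and the 3 groups did not overlap, although the gap between the treated groups was only 0.0042. It rose by 0.17 ± 0.05 (1.12-fold, adjusted p = 0.0255) under LPS plus PGE and by 0.28 ± 0.05 (1.21-fold, adjusted p = 0.00512) under LPS. The call under LPS plus PGE was lost without untreated replicate 1 (adjusted p = 0.0555) or 2 (0.0682) and without LPS plus PGE replicate 1 (0.0517), 3 (0.0523) or 4 (0.0643), while the change stayed between 0.15 and 0.27 over all alternatives. The difference between the treatments did not pass (-0.11 ± 0.05, 95% confidence interval -0.23 to 0.01, adjusted p = 0.165).

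A second, dimmer probe set of Rc3h1 read 8.14, 8.09, 8.09 and 8.38 with LPS plus PGE, 8.28, 7.92 and 8.14 with LPS and 7.95, 8.01, 7.93 and 7.98 in untreated cells. Its LPS arrays overlapped the untreated ones, and it passed neither for LPS plus PGE (0.21 ± 0.09, adjusted p = 0.125) nor for LPS (0.15 ± 0.10, adjusted p = 0.389) against untreated. Rc3h2, which encodes the related Roquin-2, did not pass in any comparison (0.09 ± 0.06 for LPS plus PGE and 0.05 ± 0.06 for LPS against untreated; 0.04 ± 0.06 for LPS plus PGE against LPS).

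Both Btg genes rose, Btg2 by far the more. Btg2 stood at 11.50, 11.79, 11.80 and 11.59 with LPS plus PGE, at 10.86, 10.57 and 10.98 with LPS and at 8.95, 8.87, 8.66 and 8.64 in untreated cells. As for Zc3h12a, the 3 groups did not overlap, with a gap of 0.52 between the treated groups. The change was 2.89 ± 0.11 (7.40-fold, adjusted p = 1.19e-09) under LPS plus PGE and 2.02 ± 0.12 (4.07-fold, adjusted p = 1.2e-07) under LPS. Against LPS alone, LPS plus PGE raised it by 0.86 ± 0.12 (1.82-fold, 95% confidence interval 0.61 to 1.12, adjusted p = 0.000564), higher on 4 of 4 arrays, and it ranked 143 from the top of all genes. This was the largest difference between the treatments among the 8 genes, and it ran from 0.75 to 0.95 over the 22 alternatives. Its promoter window is the one that holds the CRE shown above, and no link between them was tested.

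Btg1, bright in all groups, read 12.52, 12.36, 12.43 and 12.46 with LPS plus PGE, 12.38, 12.40 and 12.33 with LPS and 11.80, 11.87, 11.75 and 11.88 in untreated cells. The treated groups overlapped each other and lay above the untreated arrays. It rose by 0.62 ± 0.06 (1.54-fold, adjusted p = 5.02e-06) under LPS plus PGE and by 0.55 ± 0.06 (1.46-fold, adjusted p = 5.25e-05) under LPS. The difference between the treatments was 0.07 ± 0.06 (95% confidence interval -0.06 to 0.20, adjusted p = 0.396). On the same arrays the difference of Btg2 over Btg1 was higher than its untreated mean by 2.02 to 2.47 with LPS plus PGE and by 1.22 to 1.69 with LPS, against -0.19 to 0.20 in untreated cells.

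Tob1 and Tob2, the other BTG/TOB genes named from the list of decay cofactors, gave another pattern. Tob2 had 7.57, 7.50, 7.63 and 7.57 with LPS plus PGE, 6.39, 6.20 and 6.50 with LPS and 6.82, 6.65, 6.73 and 6.77 in untreated cells. It was lowest with LPS and highest with LPS plus PGE, with no overlap. It rose by 0.83 ± 0.07 (adjusted p = 3.21e-06) for LPS plus PGE and fell by 0.38 ± 0.08 (adjusted p = 0.00603) for LPS, each against untreated, and LPS plus PGE raised it by 1.20 ± 0.08 over LPS (adjusted p = 1.63e-06). Tob1 had 8.87, 8.75, 8.75 and 8.90 with LPS plus PGE, 8.39, 8.06 and 8.26 with LPS and 8.27, 8.02, 8.05 and 8.02 in untreated cells. It rose by 0.58 ± 0.09 over LPS (adjusted p = 0.00131) and by 0.73 ± 0.08 over untreated cells (adjusted p = 3.79e-05), and did not pass for LPS alone (0.15 ± 0.09, adjusted p = 0.337). All of these Tob1 and Tob2 calls kept their direction under the 3 other scalings.

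Counted together, 7 of the 8 genes rose and 0 fell under LPS plus PGE against untreated, where 13.8% of all genes rose and 17.9% fell. Under LPS 7 of 8 rose and 0 fell, where 6.55% of all genes rose and 6.69% fell. Set against LPS, LPS plus PGE raised 2 of 8 and lowered 0, where 11.9% of all genes rose and 12.9% fell. The groups did not overlap for 7, 8 and 4 of the 8 genes in these comparisons, against 35.1%, 23.1% and 33.9% of all genes. The median log2 fold change of the 8 was 1.74, 1.62 and 0.12 in these comparisons, against 0.02, -0.01 and -0.0045 for all genes. Changes of at least 2-fold were called for 5 of the 8 genes under LPS plus PGE and for 5 under LPS (2.97% and 1.93% of all genes), and for 0 between the treatments (0.714%). In the main limma fit none of the 8 was called lower in any comparison, and at an unadjusted p under 0.05 only Zfp36l2 under LPS was lower. With a trended and robust variance, or with dim genes left out, Zfp36l2 under LPS was called lower.

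**Figure D3:**
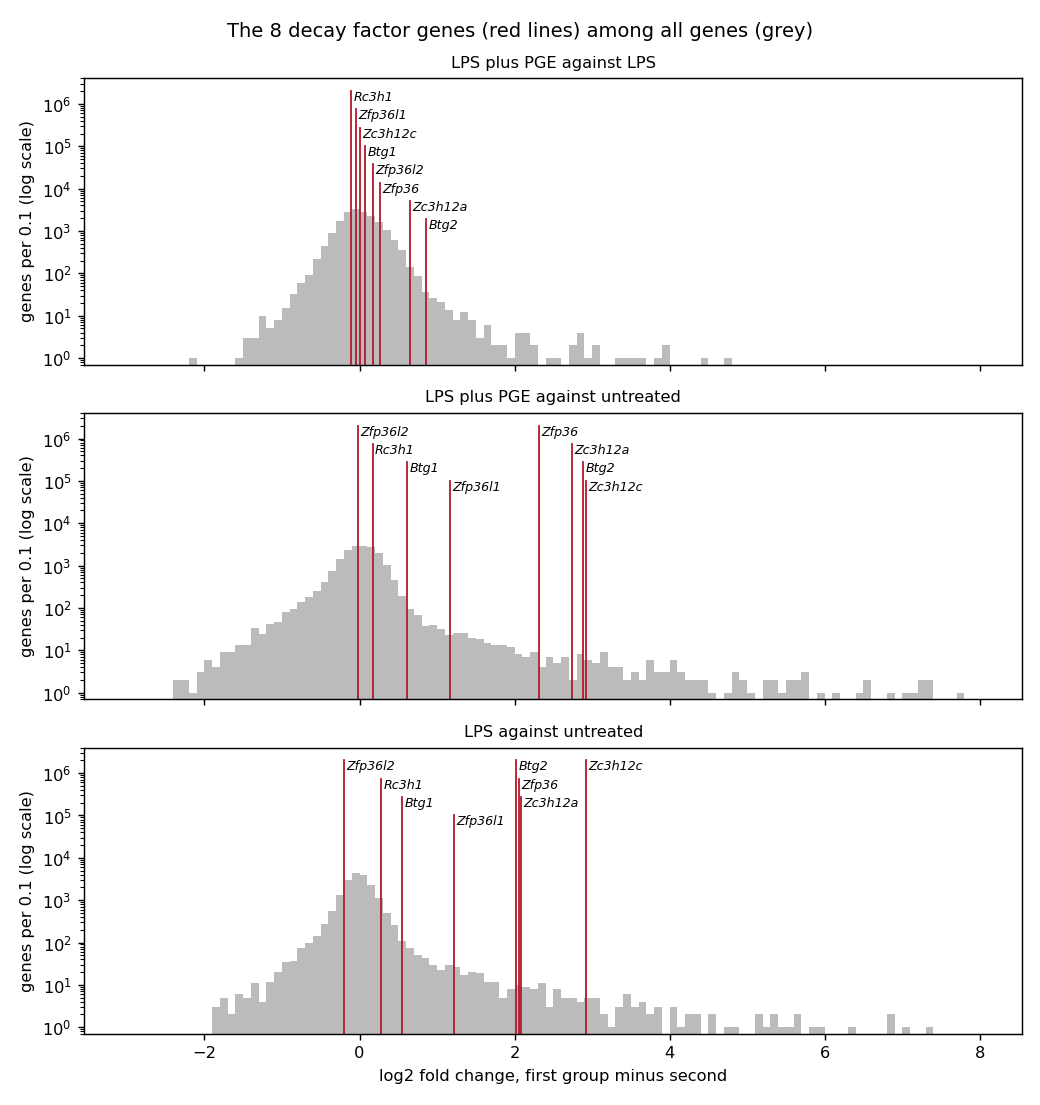
Number of genes per 0.1 of log2 fold change (vertical log axis) for LPS plus PGE against LPS, LPS plus PGE against untreated and LPS against untreated from top to bottom; red lines mark the 8 genes, and their height only spaces the names. Zc3h12c, Zc3h12a, Zfp36 and Btg2 lie in the thin right tail against untreated cells (2.02 to 2.92), and 6 of the 8 lie within the bulk of genes for LPS plus PGE against LPS.

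The likeness of patterns was measured as the root mean square difference, over the 11 arrays, between changes from each gene's own untreated mean. Among the 8 genes, Zc3h12a and Btg2 were closest (0.195), followed by Zfp36 and Zc3h12a (0.276), and Zfp36l2 and Zc3h12c were farthest apart (2.41). Outside them, the gene nearest to Zc3h12a was Junb (0.0788), an AP-1 subunit gene, then Rab11fip1 (0.133) and Eid3 (0.168). The same 3 genes were nearest to Btg2, at 0.218 for Junb, 0.249 for Eid3 and 0.263 for Rab11fip1. Zc3h12c was nearest to the phosphatase gene Dusp1 (0.148), to Nfkbid (0.172) and to Traf1 (0.184). Zfp36 was nearest to Zswim4 (0.191), the adhesion gene Icam1 (0.211) and the receptor gene Tlr2 (0.215), and Zfp36l1 to Nfkbib (0.0836), Snx18 (0.0957) and Cdkn1a (0.109).

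The small changes had many neighbours. For Btg1 the nearest were Il17ra (0.0526), Tnfaip8 (0.0549) and Pnrc1 (0.0553), with 174 genes within 0.2. For Rc3h1 they were Atad2b (0.0486), Dnaja2 (0.0501) and Atxn7 (0.0510), and for Zfp36l2 Rcc2 (0.0415), Cyb561a3 (0.0454) and Gpx4 (0.0464). Within 0.2 of these lay 4746 and 7628 genes, so their neighbours single out little. These distances are descriptions over 11 arrays that share the same 3 groups.

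The enzymes and adaptors with which the 8 proteins work had small median changes, from -0.13 to -0.01. Of 38 measured cofactors (CCR4-NOT and PAN deadenylase subunits, decapping factors, exosome subunits and others), 2 rose and 14 fell under LPS plus PGE against untreated, with a median log2 fold change of -0.11. Under LPS, 2 rose and 4 fell (median -0.01), and for LPS plus PGE against LPS 2 rose and 9 fell (median -0.13). Of all genes, 13.8% rose and 17.9% fell, 6.55% rose and 6.69% fell, and 11.9% rose and 12.9% fell in these comparisons. The same shares stand beside the counts of the lists that follow. The falls depended on scaling, since after cyclic loess normalization 5 rose and 5 fell, 3 rose and 3 fell, and 2 rose and 1 fell in the same comparisons. With equal array medians they were 3 rises and 8 falls, 8 and 2, and 2 and 14.

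Beside Tob1 and Tob2, the largest falls of that list under LPS plus PGE against untreated were those of the exosome subunit genes Exosc4 (-0.53 ± 0.10, adjusted p = 0.0019) and Exosc7 (-0.48 ± 0.08, adjusted p = 0.00107). Against LPS alone they were those of the decapping gene Dcp1b (-0.50 ± 0.09, adjusted p = 0.00237) and the deadenylase gene Parn (-0.42 ± 0.08, adjusted p = 0.00468; 0.0562 after cyclic loess). Under LPS the decapping activator gene Patl1 rose (0.38 ± 0.07, adjusted p = 0.00189), as did Tnrc6b, which encodes a partner of Argonaute proteins (0.26 ± 0.06, adjusted p = 0.0182), while Exosc4 fell (-0.40 ± 0.11, adjusted p = 0.0324; 0.108 with equal medians). Of 10 measured genes named Cnot, which encode CCR4-NOT subunits, 4 fell under LPS plus PGE against untreated (Cnot6l, Cnot9, Cnot10 and Cnot11), 1 fell under LPS (Cnot6) and 2 fell for LPS plus PGE against LPS (Cnot8 and Cnot10). Their log2 fold changes were no lower than -0.28, and the other Cnot genes did not pass in these comparisons. The Cnot genes belong to the cofactor list, whose falls depended on scaling, and their calls under other scalings are not given here.

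Of 14 other RNA-binding regulators of inflammatory messengers, 3 rose and 6 fell under LPS plus PGE against untreated (median -0.14), 3 rose under LPS (median 0.02), and 1 rose and 4 fell for LPS plus PGE against LPS (median -0.12). After cyclic loess these counts were 4 and 3, 4 and 0, and 1 and 1. Arid5a encodes a protein that protects Il6 messengers from Regnase-1. It stood at 8.21, 8.16, 8.25 and 8.33 with LPS plus PGE, at 8.55, 8.51 and 8.66 with LPS and at 7.29, 7.18, 7.28 and 7.40 in untreated cells. Unlike Zc3h12a, its levels were lower with LPS plus PGE than with LPS, without overlap. It rose by 0.95 ± 0.06 (adjusted p = 3.81e-07) under LPS plus PGE and by 1.29 ± 0.07 (adjusted p = 7.74e-08) under LPS, and fell under LPS plus PGE against LPS (-0.34 ± 0.07, adjusted p = 0.00618; -0.20 with 0.0599 after cyclic loess).

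N4bp1, which encodes a ribonuclease, rose by 0.96 ± 0.07 under LPS plus PGE (adjusted p = 5.51e-07) and by 1.01 ± 0.07 under LPS (adjusted p = 1.21e-06). The antiviral zinc finger gene Zc3hav1 rose under LPS plus PGE (0.42 ± 0.06, adjusted p = 2e-04) and under LPS (0.21 ± 0.06, adjusted p = 0.0461), each against untreated, and under LPS plus PGE against LPS (0.21 ± 0.06, adjusted p = 0.0339; 0.0531 with equal medians). Tia1, a translation silencer gene, fell under LPS plus PGE against untreated (-0.64 ± 0.11, adjusted p = 0.000763), and its difference from LPS was -0.40 ± 0.12 (adjusted p = 0.0284; 0.166 after cyclic loess).

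The p38 kinase and its target MK2 phosphorylate tristetraprolin, which lowers its activity. Of 11 genes of that branch, 5 rose and 1 fell under LPS plus PGE against untreated (median 0.13), 4 rose under LPS (median 0.09), and 2 rose and 2 fell for LPS plus PGE against LPS (median -0.08). The p38 phosphatase gene Dusp1, which is in the target list too, rose most, by 3.03 ± 0.06 under LPS plus PGE (adjusted p = 1.89e-12) and by 2.80 ± 0.06 under LPS (adjusted p = 1.71e-11). Mapkapk2, which encodes MK2, rose by 0.60 ± 0.06 (adjusted p = 8.35e-06) and by 0.74 ± 0.06 (adjusted p = 4e-06) in the comparisons of LPS plus PGE and of LPS with untreated cells. The 1 fall was that of Ywhab (-0.14 ± 0.05, adjusted p = 0.0401), which was not called under any of the 3 other scalings. Map2k3, encoding a kinase that activates p38, rose under LPS plus PGE (0.69 ± 0.10, adjusted p = 0.000195) and under LPS (0.51 ± 0.10, adjusted p = 0.00559), and did not pass between them (0.18 ± 0.10, adjusted p = 0.227). Over LPS alone, Mapkapk3 rose by 0.41 ± 0.07 (adjusted p = 0.00237). Dusp1 rose by 0.23 ± 0.06 over LPS (adjusted p = 0.0195; 0.094 after quantile normalization), while Mapk14 (-0.25 ± 0.07, adjusted p = 0.0225; 0.0753 after cyclic loess) and Map2k6 (-0.28 ± 0.09, adjusted p = 0.0378; 0.243 after quantile normalization) fell.

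Most listed transcripts described as targets of tristetraprolin, Regnase-1 or Roquin rose against untreated cells, as did the genes for these proteins. The list holds cytokine and chemokine genes and was chosen with earlier results of these data known. Its counts of rises against untreated cells therefore describe the list and are no test of a link to the decay factors. Leaving out Zfp36 and Zc3h12a, which are described targets themselves, 32 were measured. Of these, 26 rose under LPS plus PGE against untreated (median 3.19) and 26 under LPS (median 2.60). Il1a and Il6 led under LPS plus PGE, at 7.72 and 7.33, and Il1a and Cxcl2 under LPS, at 7.30 and 7.03. Between LPS plus PGE and LPS 12 rose and 6 fell, and 14 did not pass (median 0.22). The rises between the treatments were led by Il6 (3.68 ± 0.13, adjusted p = 5.09e-09), a target of Regnase-1, and Lif (3.45 ± 0.22, adjusted p = 1.63e-06), another cytokine gene. The largest falls were those of Il12b (-1.44 ± 0.18, adjusted p = 0.000323), which encodes a cytokine subunit, and the chemokine gene Ccl4 (-0.81 ± 0.10, adjusted p = 0.000352). The rises of Ifng (adjusted p = 0.0469) and Calcr (0.0365) were at levels below the median gene and were not called after quantile normalization (0.194 and 0.144). Targets thus differed in both direction and size between the treatments, and rates of messenger decay were not measured.

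**Figure D4:**
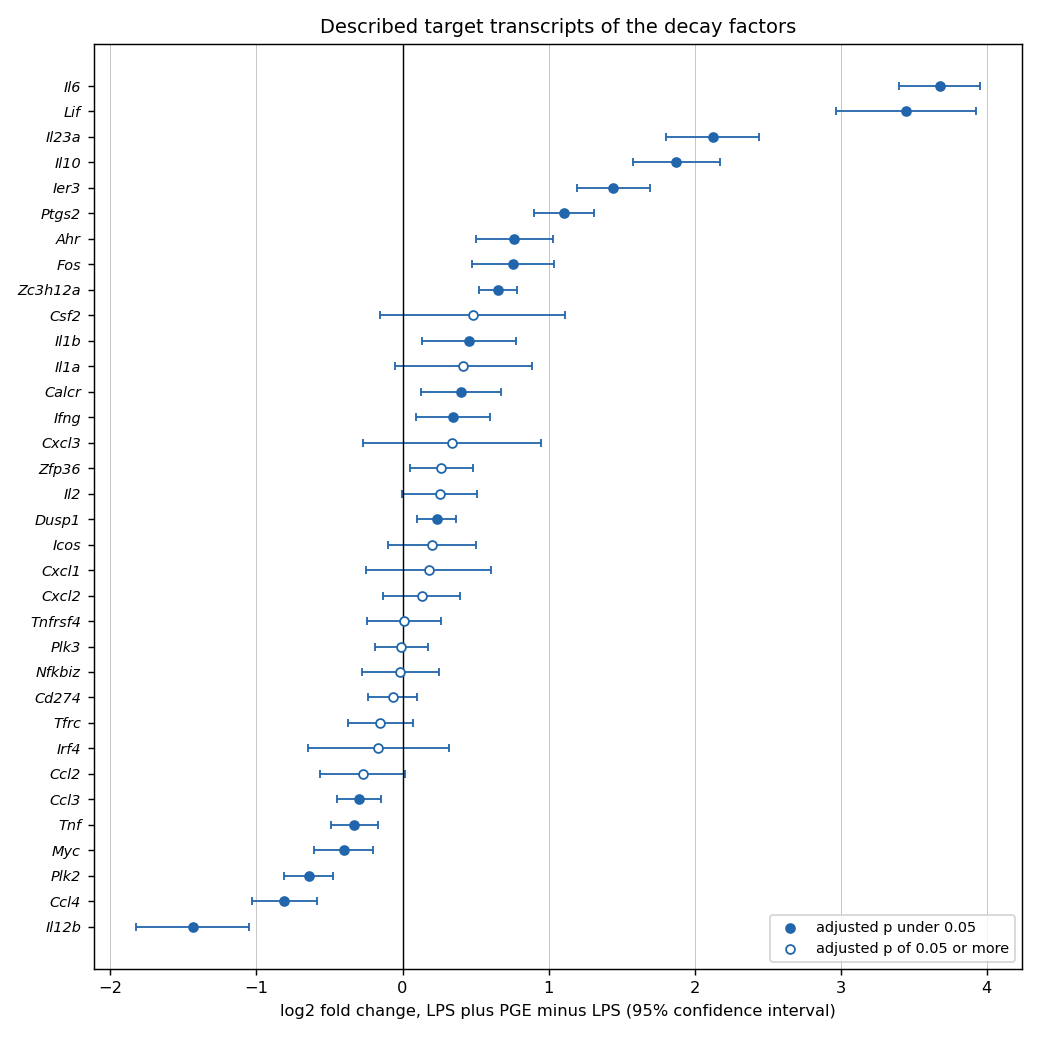
Log2 fold change, LPS plus PGE minus LPS (horizontal axis), with its 95% confidence interval for the 34 measured transcripts of the target list, Zfp36 and Zc3h12a included. Filled circles passed an adjusted p of 0.05 and open circles did not; values run from -1.44 for Il12b to 3.68 for Il6.

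As a check on the scale, none of 12 housekeeping genes was called by limma under LPS (1 lower at an unadjusted p under 0.05) or for LPS plus PGE against LPS (2 higher and 1 lower). Under LPS plus PGE against untreated 1 was called, Tbp, which fell (-0.21 ± 0.06, adjusted p = 0.0259), and 3 were lower at an unadjusted p under 0.05. The 12 changes under LPS nevertheless ran from -0.18 to -0.01, with a median of -0.07, or 0.04 with equal array medians. For LPS plus PGE against untreated the median was -0.08, and 0 with equal array medians.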

How the data were processed

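The deposited values are 1 column per array of Affymetrix mouse gene arrays, on a log2 scale inferred from RMA, which the submitters' processing notes name beside Affymetrix Power Tools, R 2.13.1 and Partek, and from their range (1.20 to 13.81); the authors' normalization was kept. Roles of these tools and the genome build are not given in the sources used here. Per the labels, 250 ng of total RNA was used per sample, and the authors left out 1 LPS array of 12 for quality. Of 35309 probe sets, 21143 had 1 gene symbol, 1870 several and 12296 none in GEO's platform annotation, and the brightest probe set was taken for each of 18755 genes.

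Group means were estimated by limma (3.58.1, under R 4.3.3) from the 11 arrays together, leaving 8 residual degrees of freedom. Tests were two-sided, and a gene was called where the Benjamini-Hochberg adjusted p-value over all genes lay under 0.05. The fitting procedure was also run on simulated data with added changes and independent noise. That run held no changes as small as those of Rc3h1 and no shift of scale, so it does not bear on these. Motifs and figures used Python 3.11.15 and matplotlib 3.10.9. The 8 genes and the 5 gene lists, with 8 marker lists, were chosen with earlier results of these data known. Genes named from a list were up to 2 largest rises and 2 largest falls among those that passed in a comparison. The nearest 3 genes by pattern left out unnamed predicted genes. Other genes named (Zc3h12d and Zc3h12b where not leading, Rc3h2, Cd14, the Cnot genes, Ifng, Calcr and the Arid5a difference between treatments) were chosen after their values were seen. The closing section lists the alternatives. Listed genes that were not matched were not analysed here. The number of arrays limits the precision.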

Additional observations from a re-analysis of the deposited data

Results flagged for a closer look

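Zc3h12c in untreated cells was singled out because 1 array lay far from the others of its group: untreated replicate 3 read 8.94, and the other 3 arrays lay between 8.66 and 8.70, so that this gap made up 0.855 of the group's range, above the 95% limit of Dixon's test. Of 16 groups of 4 arrays checked in this way (8 genes in 2 groups), 1 was singled out, and chance alone does so for about 1 in 20 groups. Without that array the rise of Zc3h12c was 2.99 under LPS plus PGE and 2.98 under LPS, and on the second probe set of the gene the same array (8.31) lay within its group. The 3 LPS arrays are too few for this check.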

How the results depend on the processing

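Each of the 8 genes was refitted in 3 comparisons under 22 alternatives: quantile normalization, equal array medians, cyclic loess, a trended and robust variance, array weights, only the 2 groups compared, dim genes left out, every probe set tested, probe sets averaged within genes, a size limit of 2-fold, a replicate block, and omission of each of 11 arrays. Of 528 values, 501 kept their direction and their side of the threshold, 11 lost a call, 5 gained one and 11 changed sign. Of the lost calls, 6 came from the 2-fold threshold and the others were those of Rc3h1 without single arrays. The changes of sign were all in differences near 0 that never passed: Zfp36l2 in LPS plus PGE against untreated (0.013 after quantile normalization, 0.058 with equal medians, 0.046 after cyclic loess), Zfp36l1 in LPS plus PGE against LPS (0.025 after cyclic loess), and Zc3h12c in LPS plus PGE against LPS (-0.029 with equal medians, -0.025 with array weights, -0.017 for averaged probe sets, -0.011 with the replicate block, and -0.077 without LPS replicate 3 to 0.052 without LPS replicate 2 when single arrays were left out).

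For LPS plus PGE against LPS, 4 of the 8 genes were called with a trended and robust variance and 0 at the 2-fold threshold, against 2. Over all genes the 2-fold threshold left 557 calls for LPS plus PGE against untreated (5946 without it), 362 for LPS against untreated (2483) and 134 for LPS plus PGE against LPS (4641). Cyclic loess gave 3917 calls for LPS plus PGE against untreated and 2123 for LPS plus PGE against LPS, and quantile normalization gave 2358 for LPS plus PGE against LPS; the cause was not tested. With single arrays left out, the last comparison had 2945 (without LPS replicate 3) to 4455 calls. Nothing in the labels makes equal replicate numbers a pair, but same-numbered arrays deviated together weakly. Their deviations correlated at -0.0201 to 0.207 (10 pairs, median 0.126), against -0.138 to 0.0947 for differently numbered arrays (30 pairs, median -0.038). In 18 of 20 checks an array correlated best with its own number among the 3 or 4 arrays of another group. Each of the 10 pairs was checked from either side, so these checks are not independent. The main model does not use the replicate numbers. With the replicate block 6124, 2454 and 4698 genes and 7, 7 and 2 of the 8 were called in the comparisons of LPS plus PGE with untreated, LPS with untreated and LPS plus PGE with LPS, and no call among the 8 changed.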
